A study of Rattus norvegicus with 6 samples.

Results

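Among the 61657 gene probes of an Agilent rat expression array, 31 were well above background on all 3 liver arrays of 1 treatment group and on none of the other group's 3 arrays, with a clear gap between the groups. Of these, 20 were bright in the livers of rats given tert-butyl alcohol (tBA) and 11 in the livers of rats given vehicle. The members were selected on the measured values themselves. A probe had to carry Feature Extraction's well-above-background mark on every array of the bright group and on no array of the dim group, no outlier mark on any of the 6 arrays, and a gap of more than 2 log2 units between the lowest bright and the highest dim value. Values are log2 of the background-subtracted signal minus the 75th percentile of that array, so that 0 marks that percentile. The members' values are therefore a description of what the selection picked, with no test: 0.0324% of all probes passed it with tBA higher and 0.0178% with vehicle higher, and nothing is read from these shares.

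All 6 animals were male Sprague-Dawley (Crl:CD(SD)) rats bought at 5 weeks of age. Of these, 3 were dosed with tBA at 1000 mg/kg/day, and 3 received vehicle alone, which the sample labels name as purified water and the treatment protocol as corn oil. The study length is likewise given as 28 days in the series text and as 9 weeks in the protocol. Total liver RNA of each animal was labelled with Cy3 and hybridised to 1 array, so that 1 array stands for 1 rat. In whole liver, a change in the number of cells of a type and a change in RNA per cell cannot be told apart.

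tBA is a branched alcohol used as a solvent, and the fuel additives MTBE and ETBE are broken down to it in the body. A microarray probe is a short strand of DNA that binds the labelled copy of 1 transcript, and its brightness reports how much of that transcript the sample held. A spot that is not well above background gives at most an upper limit of the level. A probe bright in 1 group and dim in the other therefore has no measured fold. Many probes of such arrays were designed on predicted transcripts and sequenced cDNA ends whose genes have since been redefined, so that a probe can report a real RNA for which no current gene name is at hand.

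The arrays were alike in overall brightness: the background mark was met by 61.5% to 66.9% of probes, no spot was saturated, and 3 to 16 spots per array carried an outlier mark. tBA replicate 1 shared slide 1 with all vehicle arrays, while tBA replicates 2 and 3 were on slide 2. All 10 hepatocyte markers (such as Alb and Apoa1) were well above background on all 6 arrays, with a mean level of 7.61 to 7.90. Markers of pancreas, skeletal muscle and testis stood at mean levels of -6.30 to -5.41, -5.43 to -5.03 and -4.98 to -4.34. No member was found in the marker and pathway lists examined. Only 2 of the 31 members had a gene symbol to match, so nothing is read from this.

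The description "signal in 1 group only" held for the strict background mark and not for a looser one. Feature Extraction also marks spots whose signal exceeds the local background in its own test, and 19 of the 20 probes bright with tBA carried this looser mark on at least 1 vehicle array: 10 on 1 array, 4 on 2 and 5 on all 3. Vehicle replicate 2 held it for 19 of the 20, against 7 each for vehicle replicates 1 and 3. Over all probes vehicle replicate 2 also met the strict mark more often, at 66.9% against 62.6% and 62.3%. The share of all probes with the looser mark is not given here, so nothing is read from the difference between these arrays. Among the 11 probes bright with vehicle, 7 carried it on at least 1 tBA array. By this looser mark most members thus had some signal in their dim group.

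The 20 probes bright with tBA were the larger and the more uniform set. Their values on the tBA arrays lay between -4.48 and -0.67 and on the vehicle arrays between -7.68 and -5.19. The gap ran from 2.00 to 5.79 with a median of 3.29, and the difference of the group means from 3.20 to 6.15 with a median of 4.26, against a median of 0.01 over the 37647 probes that a test across the array covered. These sizes rest on the background level of the dim arrays: after normexp background correction the differences were 0.83 to 2.56 with a median of 1.41. The readings of the 20 probes on the 6 arrays were all below 0, and thus below the 75th percentile of their array. In limma's fit over all tested probes, with the Benjamini-Hochberg adjusted p under 0.05, 17 of the 20 were among the 26 probes called higher with tBA, which were 0.0691% of those tested. That fit used the values the members were chosen on, and each member entered it only through its bright group, so the count adds nothing to the selection. With slide as a fixed block 3 of the 20 were called, and with tBA replicate 1, 2 or 3 left out 10, 4 and 6, and with vehicle replicate 1 or 3 left out 9 and 8.

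The widest gap belonged to the cDNA FQ211796. It read -7.29, -7.61 and -7.28 on vehicle arrays 1 to 3 and -1.30, -1.49 and -0.92 on tBA arrays 1 to 3, which are processed signals of 3.80, 3.23 and 4.12 against 237, 203 and 301. The groups lay far apart, and the tBA values were within 0.57 of each other. The mean was 6.15 higher with tBA, -1.24 ± 0.29 (SD, n = 3) against -7.39 ± 0.19. For a cautious fold, the mean of the bright arrays was set against the mean of the dim arrays. Each dim array was taken at its own signal or at the lowest signal it had well above background, whichever was higher. By this measure FQ211796 was 17.6-fold higher with tBA. With that floor its log2 difference was 4.14, and after normexp correction it was 2.44. The floor is not a strict limit for a dim spot. The probe A_64_P050430 had no mark at -4.97 and -4.89 on tBA arrays 1 and 2, whose lowest marked signals were -5.13 and -5.2. Folds given below as "at least" or as a bound are this measure and no strict lower limit.

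Over the 20 probes this bound ran from 2.80-fold to 20.4-fold with a median of 7.99-fold. The largest belonged to the predicted transcript XM_343725, for which the array carries a pair of probes, both of them members. The first (A_44_P422152) read -7.47, -6.34 and -6.15 with vehicle and -1.15, -1.27 and -0.67 with tBA, a bound of at least 20.4-fold. Its partner (A_64_P022907) read -6.79, -7.31 and -6.32 with vehicle and -1.39, -1.42 and -0.98 with tBA, a bound of at least 17.3-fold. The probes lie 100 array rows apart, at rows 259 and 359, and both were highest on tBA replicate 3.

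The cDNA BC059164 supplied 3 members. The first (A_64_P066577) read -7.07, -6.52 and -7.08 with vehicle and -1.33, -1.53 and -1.12 with tBA, at least 16.6-fold higher. The next (A_64_P087040) read -6.16, -5.70 and -6.13 against -1.73, -1.81 and -1.40, at least 13.2-fold higher. The last (A_64_P033559) read -6.95, -6.23 and -5.92 against -3.21, -3.22 and -2.57, at least 5.20-fold higher. All 3 were highest on tBA replicate 3. The remaining 2 probes of BC059164 were no members but were also higher on every tBA array than on any vehicle array. A_64_P048705 read -6.24, -5.40 and -5.59 against -3.24, -3.08 and -2.83. A_64_P050430, dim by the background mark on all arrays, read -7.10, -7.64 and -7.13 against -4.97, -4.89 and -5.22. All 5 probes of this cDNA thus separated the groups in the same direction, 4 of them with a gap of more than 2 units.

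The Ensembl transcript ENSRNOT00000040473 had 9 probes, of which 2 were members. A_64_P077240 read -7.14, -5.47 and -7.13 with vehicle and -2.09, -1.96 and -1.50 with tBA, at least 10.9-fold higher. A_44_P295414 read -7.13, -5.38 and -7.15 against -2.58, -2.54 and -1.99, at least 7.42-fold higher. In both, vehicle replicate 2 was the highest vehicle array. One more probe (A_44_P447781) separated the groups by 2.73, at -4.32, -4.45 and -6.87 against -1.21, -1.58 and -0.75, and was left out by the background mark alone. Another probe of the transcript (A_64_P080580) was higher on all tBA arrays, at -5.17, -6.79 and -6.82 against -7.22, -7.30 and -7.25, and met the background mark on no array. The remaining 5 overlapped between the groups. Probes carrying 1 transcript name thus disagreed, and which stretch of the transcript each of them reads is not given in the files used here.

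The only member with a curated RefSeq transcript among the 20 was NM_001014221, for which the reference table used here has no symbol. Its member probe (A_64_P012477) read -6.52, -5.45 and -7.26 with vehicle and -1.69, -1.75 and -1.26 with tBA, at least 13.1-fold higher. The array carries 12 other probes under this accession, and 10 of them met the background mark on no array. One of the others (A_44_P149896) read -6.36, -4.83 and -4.46 against -2.73, -2.77 and -2.46, so that the groups did not overlap, by a gap of 1.69. A_64_P124898 read -7.35, -6.02 and -7.02 against -3.36, -6.06 and -4.67, with overlap.

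The EST DV720855 had a pair of probes. The member (A_64_P065165) read -5.97, -5.37 and -6.14 with vehicle and -1.90, -2.25 and -1.70 with tBA, at least 9.90-fold higher. The other (A_44_P215680) read -5.54, -5.91 and -5.15 against -1.66, -1.69 and -1.28, a gap of 3.46, and missed the rule only because it was well above background on 1 vehicle array. Both probes of this EST therefore separated the groups by more than 3 units.

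Of the 20, 10 were designed on predicted (XM) transcripts, and most of these had neighbouring accession numbers. In all, 6 member accessions, with 7 member probes, lie between XM_343646 and XM_343751. XM_343728 read -7.17, -7.68 and -7.16 with vehicle and -3.23, -3.05 and -2.52 with tBA, at least 5.44-fold higher. XM_343751 read -7.39, -6.63 and -7.40 against -3.03, -2.70 and -2.45, at least 6.30-fold higher. XM_343646 read -7.17, -5.95 and -7.16 against -2.39, -2.42 and -2.04, at least 8.55-fold higher. On the vehicle arrays these 3 read -5.95 or lower. XM_343745 read -6.90, -5.40 and -5.19 against -1.95, -2.00 and -1.57, a gap of 3.19. XM_343747 read -7.22, -6.43 and -7.22 against -3.51, -3.30 and -2.71, at least 4.62-fold higher, while its other probe was dim on all 6 arrays, at -7.62 to -7.06. XM_343725, described above, is the last of the 6.

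The array holds 24 probes for 21 accessions in this run of numbers, and 9 of the 24 (37.5%) had a gap of more than 2 units with tBA higher, whatever their background mark. Over all 61657 probes that share was 0.0503% (31 probes), and among the 3916 other XM probes it was 0.128% (5 probes). The run was picked out after the values were seen, and its ends are set by members, so the share is a description without a test. The 2 probes of the run that had the gap without being members were XM_343695, at -6.90, -5.21 and -5.92 with vehicle and -2.38, -2.51 and -2.29 with tBA, and XM_343652, at -5.36, -4.75 and -5.34 against -2.27, -2.41 and -2.09. XM_343674 met the background marks of the tBA set and missed the gap, at 1.26, with -7.43, -5.78 and -6.04 against -4.52, -4.35 and -4.35. Not every transcript of the run was higher with tBA. XM_343661 read -1.93, -1.90 and -1.28 with vehicle and -1.91, -1.78 and -1.60 with tBA, and of the 24 probes 8 met the background mark on every array and 5 on none. Neighbouring accession numbers are not positions: whether these transcripts lie near each other in the genome was not tested here. The deposited arrays give no coordinates, and the reference gene table holds none of the 16 names of the 20 probes. Of these names, 2 are probe names and no transcripts.

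Whether the members share a locus could therefore be answered only by name. Among the 31, 3 transcript names carried more than 1 member (BC059164, XM_343725 and ENSRNOT00000040473), covering 7 probes. On the array, 19 members were the only probe of their name. These include 2 tBA-bright and 2 vehicle-bright members known only by a probe name, for which this holds by construction. The names of the 20 held 23 other probes, and 6 of these were higher on every tBA array than on any vehicle array. A probe of NM_001014221 (A_64_P046885), which met the background mark on no array, separated the groups the other way. It read -6.39, -6.43 and -6.29 with vehicle and -6.64, -7.14 and -7.36 with tBA. Over all probes, groups separated by any distance with tBA higher in 10.2% and with vehicle higher in 7.53%.

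The tBA-bright probes had their highest tBA array in common. Some of them share a transcript name, so the 20 are not independent of each other. tBA replicate 3 was the highest of the tBA arrays for 20 of the 20. It exceeded the mean of the other tBA arrays by 0.31 to 0.78, with a median of 0.50. Over the 35660 probes well above background on all 6 arrays, replicate 3 was the highest in 31.4% and its median excess was -0.00377. tBA replicate 1 was above replicate 2 for 13 of the 20. The rule set no condition on the order of the tBA arrays. On the vehicle side the highest array was replicate 2 for 13 members and replicate 3 for 7. Over the same 35660 probes these were the highest vehicle array in 32.4% and 35.8%. Those probes were not matched to the members in level. The members were dim on the vehicle arrays, so nothing is read from the order there. tBA replicate 1, hybridised on the same slide as the vehicle arrays, exceeded their mean by 2.85 to 6.09, with a median of 4.06. The rule required an excess of more than 2 there, so this says nothing about the part of the slide, which was not tested.

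The remaining 5 tBA-bright members had gaps from 2.00 to 2.92. For A_64_P081738 and A_64_P153694 the files give a probe name and no transcript. The first read -7.37, -6.18 and -7.38 with vehicle and -2.96, -3.26 and -2.46 with tBA, at least 5.60-fold higher, and the second -7.25, -5.94 and -7.25 against -3.14, -3.14 and -2.42, at least 5.57-fold higher. XM_216072 had the smallest fold bound and the widest spread over the tBA arrays, at -7.41, -7.58 and -7.01 against -4.48, -3.83 and -3.37, at least 2.80-fold higher. At the edge of the rule stood XM_226292, at -7.47, -6.51 and -7.47 against -3.95, -4.10 and -3.59, and XM_001074433, at -7.12, -5.88 and -7.14 against -3.51, -3.87 and -3.15, a gap of 2.00. Just outside it were ENSRNOT00000050888, with a gap of 1.86 (-6.73, -5.70 and -5.08 against -3.21, -3.12 and -2.81), and a probe of Abcc3, with a gap of 1.55 (-5.08, -6.01 and -5.33 against -3.53, -2.47 and -2.53). Abcc3 encodes an exporter of drug and bile acid conjugates in hepatocytes. Its brightest probe, well above background on all arrays, read -2.86, -3.12 and -2.73 with vehicle and -1.52, -0.65 and -0.72 with tBA.

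The 11 probes bright with vehicle read -4.94 to -1.03 on the vehicle arrays and -7.52 to -5.60 on the tBA arrays. The difference of the group means, tBA minus vehicle, was -4.22 to -2.77 with a median of -3.90, and the fold bound 1.66 to 5.78 with a median of 3.98. After normexp correction the differences were -1.07 to -0.35 with a median of -0.76. Most of them lay at 1 end of the array. The array has 384 rows, and 8 of the 11 were spotted in rows 374 to 382, within the last 12 rows, which hold 1909 probes or 3.10% of all. The 20 tBA-bright probes lay in rows 119 to 359, none of them in the last 12. Of the 8, 5 also lay close together across the array, in columns 38 to 46 of 164. Of the 140 probes that met the background marks for vehicle with no gap asked, 25 (17.9%) lay in the last 12 rows. In limma's fit 5 of the 11 were among the 16 probes called lower with tBA, 0.0425% of those tested, with the same reservation as above. With slide as a fixed block 1 was called, and without tBA replicate 2 or 3 the count was 2 and 3.

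The last 12 rows were picked out after the members' places were seen, and the background mark is part of the rule, so the shares of marked probes there are given without a test. Leaving out the members, the share of probes well above background was higher in the last 12 rows than in the other rows by 7.25, 7.84 and 12.2 percentage points on vehicle arrays 1 to 3, and differed from them by -0.745, -0.148 and 2.21 points on tBA arrays 1 to 3. The vehicle arrays were all above the tBA arrays in this measure, 9.09 ± 2.70 points (SD, n = 3) against 0.438 ± 1.56 (SD, n = 3). The median difference of these probes, tBA minus vehicle, was -0.14, against 0.05 in the other rows. Negative control spots, which match no rat transcript, had a mean in the last rows that differed from that elsewhere by 0.76, 0.05 and 1.51 on vehicle arrays 1 to 3. On the tBA arrays the same difference was -0.06, 0.43 and -0.03 (exact two-sided permutation p = 0.2, n = 3 against 3, 12 spots in the last rows). With 3 against 3 this test cannot give a p below 0.1, so it cannot show that the controls were alike. The local background of all spots went the other way. In log2 pixel brightness its last rows differed from elsewhere by -0.25 ± 0.05 (SD, n = 3) with vehicle and -0.11 ± 0.13 with tBA. The part of array position in the 8 members was not tested. Without the last 12 rows, 3 vehicle-bright probes were left, and the 20 tBA-bright probes were the same.

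The 8 members at the array's end spread more among their bright arrays than the tBA-bright probes. Their range over the vehicle arrays was 0.35 to 3.60 with a median of 1.24, against 0.38 to 1.11 with a median of 0.585 for the tBA-bright probes over the tBA arrays. The tightest was a probe of Spata31d1, a member of a gene family known from the testis, at -3.40, -3.05 and -3.32 with vehicle and -7.19, -7.25 and -7.03 with tBA, at least 3.98-fold higher with vehicle. Its other probe on the array, in row 52, read -4.39, -4.95 and -4.59 against -5.38, -4.57 and -4.07, with overlapping groups. The 2 probes of this gene thus did not give the same picture.

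Next to the Spata31d1 probe, in the same array column and 2 rows on, lay the EST AA799507, at -3.72, -2.82 and -2.96 with vehicle and -7.16, -7.25 and -7.43 with tBA, at least 4.24-fold higher with vehicle. The most uneven was BF396302 in row 382, at -3.61, -4.64 and -1.03 against -7.20, -7.26 and -7.49, where vehicle replicate 3 alone was 3.60 above the lowest vehicle array. ENSRNOT00000060967 read -3.82, -3.87 and -1.95 against -7.30, -7.20 and -7.42, again with vehicle replicate 3 high. BQ783315 read -2.67, -4.94 and -3.88 against -7.34, -7.30 and -7.11, with vehicle replicate 1 high. AI045503 read -2.70, -4.28 and -3.84 against -7.21, -6.29 and -7.52, a gap of 2.00, also with replicate 1 high. The 2 probes without a transcript name were A_64_P137223, at -2.53, -3.21 and -2.41 against -7.19, -7.25 and -6.10, and A_44_P166171, at -4.55, -4.17 and -4.55 against -7.26, -7.14 and -7.37. The array that was brightest thus changed from probe to probe. Each of these 7 was the only probe of its name on the array. Just outside the rule stood 2 more probes of the same rows: ENSRNOT00000030150 in row 382, with a gap of 1.97 (-2.17, -4.27 and -1.10 against -6.24, -7.31 and -7.54), and C15h8orf74 in row 375, with a gap of 1.69 (-3.82, -4.78 and -4.07 against -6.47, -7.27 and -7.52).

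The other 3 vehicle-bright members lay in the body of the array. The assembled cDNA TC598831 in row 210 read -3.65, -3.45 and -2.83 with vehicle and -7.25, -7.01 and -7.47 with tBA, at least 3.83-fold higher with vehicle. The EST CB547743 in row 72 read -4.84, -4.91 and -3.80 against -7.28, -7.13 and -7.43, at least 1.66-fold higher. Both were the only probe of their name.

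The third was Ccnf, which with Spata31d1 is 1 of the 2 vehicle-bright members that have a RefSeq symbol and other probes on the array. The genes lie on different chromosomes in the reference table. Ccnf encodes cyclin F, the substrate-binding part of an SCF ubiquitin ligase whose level rises towards mitosis and which marks cell cycle proteins for breakdown. The member probe (A_44_P467269, row 28) read -3.22, -3.56 and -2.50 with vehicle and -5.60, -6.28 and -5.72 with tBA. The means were -3.09 ± 0.54 (SD, n = 3) and -5.87 ± 0.36, at least 4.46-fold higher with vehicle. The 2 other probes of Ccnf were lower on every tBA array than on any vehicle array. A_64_P025963, the brightest, read -0.22, -0.35 and -0.21 against -0.50, -0.71 and -0.46, and A_43_P15921 read -5.20, -5.05 and -5.04 against -6.66, -7.20 and -6.56. Over all probes, groups separated in that direction in 7.53%. All 3 probes had the same direction. The difference of the group means was -0.30 for A_64_P025963, which was well above background on all arrays. A_43_P15921 and the member were dim on every tBA array, so their sizes cannot be compared with it; the member's -2.77 became -0.84 after normexp correction, and limma did not call it.

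Because the vehicle set holds a gene of the mitotic cycle, the levels of a list of 18 cell cycle genes were set beside it. Of the 14 measured, 14 had a lower mean with tBA and 13 had every tBA array below every vehicle array, with a median difference of -0.97 (-0.37 after normexp correction). Of these, 11 were well above background on all arrays, and all 11 were lower, 10 without overlap, with a median of -0.92. Aurkb and Cenpf met the background mark on no array and Nuf2 on no tBA array, so that their sizes are not measured. Over all tested probes 47.5% were lower, with a median difference of 0.01. Every tBA array lay below every vehicle array for 7.53% of all probes. The direction was the same for all 14 under the 4 other scalings tried and for 13 of 14 under normexp background correction. Of these scalings, the deposited ratio is the same division by the 75th percentile. Median scaling and the percentile over detected probes shift each array by a constant. They moved the median difference of all tested probes only to 0.0882 and -0.00839, so the unchanged direction there says little. Only Nuf2, a kinetochore protein that ties chromosomes to the spindle, fell past limma's threshold. Nuf2 also met the background marks of the vehicle set and missed the gap, at 1.61, with -3.65, -3.78 and -3.69 against -5.39, -5.44 and -5.64. The kinase Cdk1, which drives entry into mitosis, read -0.20, -0.39 and -0.09 against -0.60, -1.68 and -1.47, and cyclin B2 (Ccnb2) -2.52, -2.83 and -2.19 against -3.41, -4.58 and -4.81. tBA replicate 1, which shared its slide with the vehicle arrays, was the highest of the tBA arrays in both. Over the 14 genes the mean level was -2.70, -2.73 and -2.61 on vehicle arrays 1 to 3. On tBA arrays 1 to 3 it was -3.37, -3.85 and -3.74, so the 2 arrays of slide 2 were the lowest. The part of the slide in this difference was not tested. Markers of some other cells had lower means with tBA as well: 5 of 6 T and NK cell genes (median -0.33), 2 of 2 B cell genes (-0.46), 4 of 5 macrophage genes (-0.19) and 5 of 5 stellate cell genes (-0.06), none of them called by limma. Other lists went the other way. Means were higher with tBA for 8 of 10 hepatocyte genes (0.07), 3 of 4 endothelial (0.17), 3 of 4 neutrophil (0.23) and 4 of 4 adipocyte genes (0.29), also with none called. Higher as well were 4 of 5 pancreas (0.13), 3 of 5 muscle (0.05) and 4 of 5 testis genes (0.27). Red blood cell genes were lower for 2 of 3 (-0.03), and 2 of 4 cholangiocyte genes were higher (0.03). The largest rise was in the list of CAR and PXR target genes, which is no cell type, with 11 of 13 higher (0.66) and none called. The part of any of these cells in the cell cycle genes' difference was not tested.

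Genes switched on late in the cell cycle often carry a pair of short promoter elements, the CHR (TTTGAA) and the CCAAT box. The promoter of Ccnf is therefore shown, as the member gene whose probes all gave the same direction. RefSeq's GRCr8 build places it at chr10:13783620-13783919 on the minus strand, from 250 bases before to 50 bases after the gene's start, and capitals mark both motifs.

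Ccnf: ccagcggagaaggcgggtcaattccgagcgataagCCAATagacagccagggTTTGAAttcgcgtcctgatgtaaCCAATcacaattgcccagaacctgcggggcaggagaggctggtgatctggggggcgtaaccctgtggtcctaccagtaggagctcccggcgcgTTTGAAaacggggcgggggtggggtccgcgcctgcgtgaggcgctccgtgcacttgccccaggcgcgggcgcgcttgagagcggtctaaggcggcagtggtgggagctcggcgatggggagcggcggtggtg

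TTTGAA stands at bases 53 to 58 and 169 to 174 of this stretch and CCAAT at bases 36 to 40 and 76 to 80, searched on both strands and with no overlap. Of 33469 rat promoters of the same length, 18.3% hold TTTGAA and 37.5% hold CCAAT on either strand. A match is a run of letters and was not tested as a binding site. The sequences of the probes themselves are not given in the files used here.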

How the data were processed

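RNA of 6 rat livers, 3 per group by the treatment label, was measured on 1-colour Agilent arrays. The authors deposited scanner intensities, which Feature Extraction 10.7.1.1 wrote per the file headers after subtracting the background of each spot (10.7 per the submitters' processing notes). The deposited series table holds a linear ratio, each signal divided by its array's 75th percentile. The number of arrays, 3 a group, limits the precision.

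Control spots were left out. Members are the probes that met the marks and the gap of 2 on log2 scaled signals. Differences were fitted with limma 3.58.1 (R 4.3.3) over 37647 probes that met the background mark throughout 1 group or both, with Benjamini-Hochberg adjustment at 0.05, and other computations used Python 3.11.15. On simulated data with 200 probes changed by 4 log2 units, 97.1% were recovered and 5.63% of calls were false. The simulation drew independent noise for each probe, with no slide effect, no detection floor and no selection of members. These rates therefore do not describe the calls among the members or smaller changes. Probes took symbols by accession from RefSeq (GRCr8), which named 2 of the 31. Members, lists and rules were chosen with earlier results of these data known. Named with values are, per direction, the 12 members with the largest gap, members that share a name, and 2 on each side of the gap threshold. Other members were added after their values were seen.

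Alternatives were other gaps, detection marks, scalings, normexp (offset 50, on the median signal because the mean signal was not used here), a floor, slide 1 alone, slide and replicate blocks, each array left out and, added after seeing the data, the end rows left out.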

Additional observations from a re-analysis of the deposited data

How the results depend on the processing

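The signs of the 31 member differences are fixed by the gap when arrays are left out or slide 1 is taken alone, so they say nothing about stability there. Normexp correction with an offset of 50 moved the size of all 31 beyond 1 SD, to 0.83 to 2.56 (median 1.41) with tBA bright and -1.07 to -0.35 (median -0.76) with vehicle bright. The floor at the lowest detected signal moved 30, to 1.48 to 4.35 and -2.53 to -0.73 over all members. The counts moved more, and the cause was not tested. With tBA bright (20), 12 probes passed a gap over 3, 51 the marks alone, 1 the looser detection mark, 3 normexp, 13 the floor, and 271 on slide 1 alone, where 1 tBA array stands for the group. With vehicle bright (11), 32 passed a gap over 1, 4 a gap over 3, 140 the marks alone, 4 the looser mark, 0 normexp, 0 the floor, 38 slide 1 alone, and 3 each without the last 12 rows or the first and last 24 rows. Transcript names with more than 1 member (3) were 0 with the looser mark or normexp and 5 on slide 1 alone. Leaving out 1 array gave 20 to 27 tBA-bright probes, the most without vehicle replicate 2, 11 to 45 vehicle-bright probes, the most without vehicle replicate 1, and 3 to 6 shared names, the most without tBA replicate 1.

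Of limma's 42 calls and 22 members among them, 18 and 12 were found without the filter on dim probes, 20 and 4 with slide as a fixed block, and 68 and 25 with an intensity trend. With the replicate block they were 6 and 5. Same-numbered arrays did not deviate together (correlations -0.0549, -0.0572 and 0.0153). The labels do not say whether the numbers pair animals, and these correlations cannot decide it. Leaving out 1 array gave 6 to 45 calls and 6 to 21 members, the fewest without tBA replicate 2. Locus windows of 10 kb and 1 Mb were not run because the files give no positions.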
